A study of Arabidopsis thaliana with 10 samples.

Results

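Alpha-expansins are the members of the EXPA gene family, here measured as messenger RNA of whole Arabidopsis thaliana plants under loss of boron or calcium. The members were all probe sets that name a single gene whose current symbol starts with EXPA. There were 10 of them among 13513 single-gene probe sets: EXPA4, EXPA7, EXPA8, EXPA9, EXPA15, EXPA16, EXPA18, EXPA20, EXPA21 and EXPA24. RefSeq lists 24 loci with such a symbol, so 14 of the family are not analysed here. A further 2 probe sets carry an EXPA symbol together with that of another gene and were left out.

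The arrays were 10 Affymetrix ATH1 arrays in 5 groups of 2 replicates, which the labels call biological. Control plants on complete nutrient solution were taken at 2 days, aged 19 days, and at 4 days, aged 21 days. Boron-deficient plants were taken at the same times after a change to a solution without boron, and calcium-deficient plants at 2 days only, after a change to a solution without calcium. All plants grew on perlite and received 25 µM boron and 3 mM calcium before the change. The labels name no plant accession, do not say how many plants made up a sample, and give the day the treatment began in more than 1 way.

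Expansins are secreted wall proteins that loosen the contacts between cellulose and matrix polysaccharides at acid pH, without cutting the polymers, and so let turgor extend the wall. Alpha-expansins are the branch of the family best known for this acid growth, and single members are tied to organs or cell types, such as EXPA7 and EXPA18 to root hairs. Boron crosslinks the pectin rhamnogalacturonan II, and calcium bridges homogalacturonan, so the loss of either element touches the pectin part of the same wall. The question was therefore whether transcripts of wall-loosening proteins differ between plants that lack boron, plants that lack calcium and controls.

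Signals are quantile-normalized probe set intensities in arbitrary units, on a linear scale, and compare arrays within a gene but not genes with each other. Log2 changes, and the folds taken from them, refer to log2(signal + 16), which understates the changes of dim probe sets. The folds are therefore smaller than the ratios of the mean signals. Tests are limma's moderated tests over the 17059 probe sets that passed a filter on low signal, two-sided, with Benjamini-Hochberg adjustment and a threshold of 0.05. Of the 10 members 8 passed that filter, and EXPA21 and EXPA24 did not. Before normalization the median of an array lay between 115 and 121 at 2 days and between 232 and 243 at 4 days, so day and processing cannot be told apart in comparisons across the days. Replicate arrays correlated least in the controls of 2 days (Spearman coefficient 0.969, against 0.981 to 0.993 elsewhere). The shoot markers RCA, PRK, LHCB4.1 and LHCB4.2 and the root marker PYK10 were above 0 in every group. The shoot list held 12 names and the root list 9, and these 4 genes and 1 gene were the ones that a probe set names alone. Probe sets of several genes and the 8730 without a name here were not searched for the other names. In such bulk samples fewer cells of a type and less RNA per cell cannot be told apart.

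**Figure D1:**
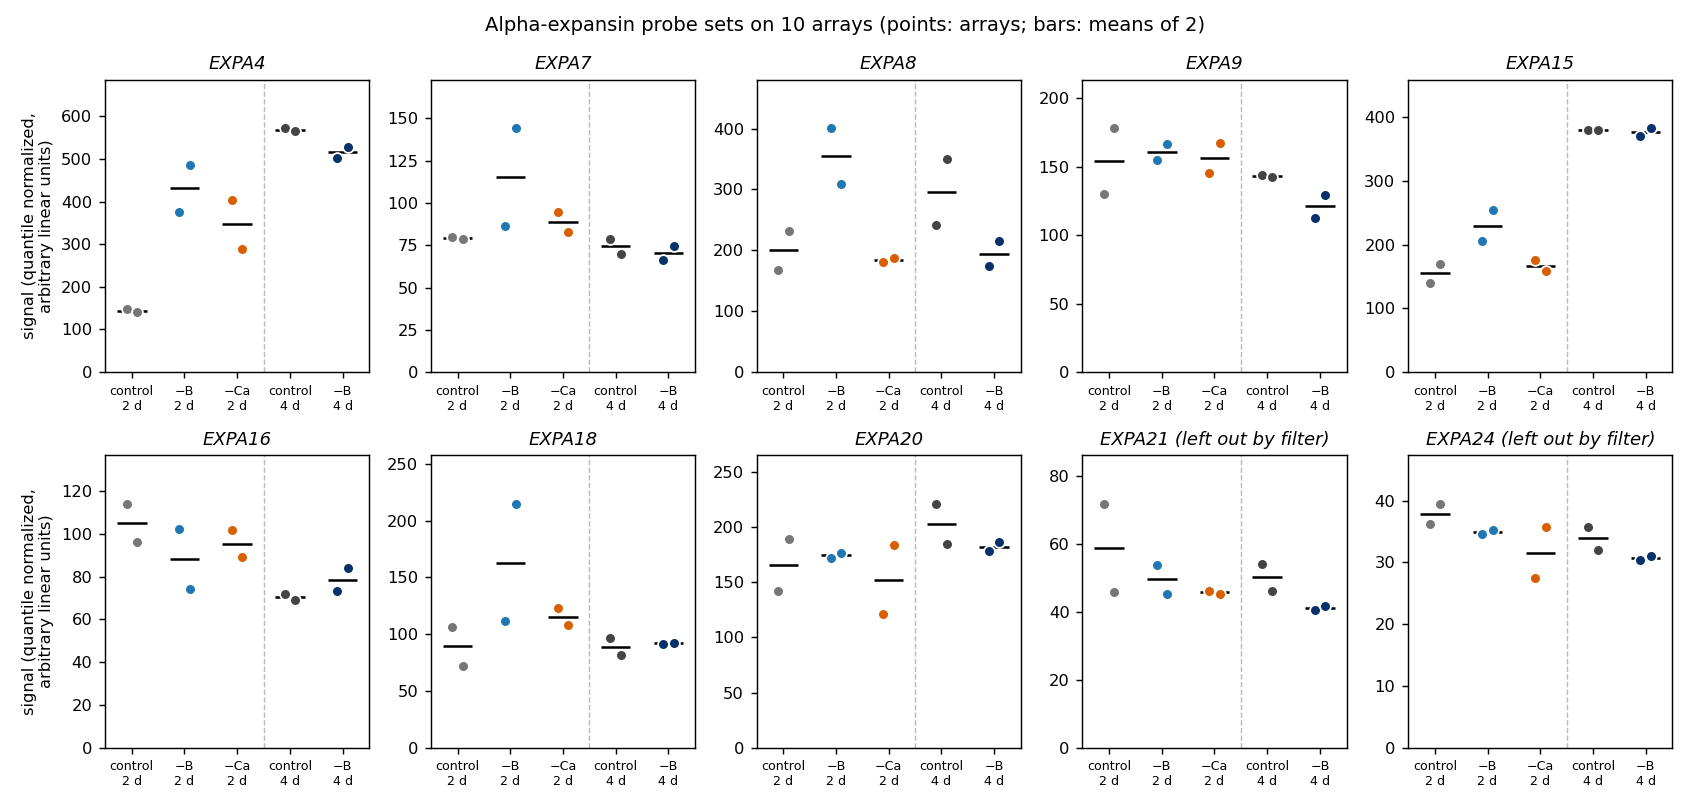
Quantile-normalized signal (linear, arbitrary units, each axis from 0) of the 10 alpha-expansin probe sets in the 5 groups. Points are single arrays and bars the means of 2 arrays. EXPA4 lies between 141 and 148 in the 2 control arrays of 2 days and between 288 and 572 in the other arrays.

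EXPA4 (AT2G39700) was the member that varied most, and it rose in both deficiencies at 2 days. Its signal was 148 and 141 in the control arrays of 2 days and 376 and 486 in the boron-deficient arrays. In the calcium-deficient arrays it was 405 and 288. All 4 deficient arrays lay above both controls. The group means were 144 ± 5.22 for controls, 431 ± 77.5 under boron loss and 347 ± 82.2 under calcium loss (SD, n = 2 arrays each).

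Against control, EXPA4 rose 2.77-fold under boron loss (log2 change 1.47, SE 0.17, 95% confidence interval 1.08 to 1.86, limma, adjusted p = 0.00285). Under calcium loss it rose 2.23-fold (log2 change 1.16, SE 0.17, 95% confidence interval 0.77 to 1.55, limma, adjusted p = 0.00269). These comparisons share their control arrays. Set directly against each other, the deficiencies differed by a log2 change of 0.31, higher with boron loss, with an interval of -0.08 to 0.70 (limma, adjusted p = 0.301). No difference between the deficiencies was therefore called for EXPA4, while one of up to 1.62-fold lay within the interval.

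At 4 days the pattern of EXPA4 was another. The control arrays stood at 572 and 565 and the boron-deficient arrays at 503 and 528, so the deficient arrays lay below both controls. The log2 change was -0.14 (95% confidence interval -0.52 to 0.25, limma, adjusted p = 0.9996), and the difference did not pass. The boron response at 4 days minus that at 2 days was -1.60 (SE 0.24, 95% confidence interval -2.15 to -1.06, limma, adjusted p = 0.0415), past the threshold. With each array left out in turn that difference ran from -1.79 to -1.43. Its call was kept in 2 of 10 cases, without control replicate 1 or boron-deficient replicate 1 of 2 days, and adjusted p ran up to 0.214 in the others.

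The order of the EXPA4 group means was control at 2 days, calcium-deficient, boron-deficient at 2 days, boron-deficient at 4 days and control at 4 days. Of the neighbours in that order, calcium-deficient plants differed from control at 2 days, as given above. Calcium-deficient and boron-deficient plants of 2 days, and boron-deficient and control plants of 4 days, did not differ beyond their error. Control plants of 4 days exceeded those of 2 days by a log2 difference of 1.87 (SE 0.17, limma, adjusted p = 6.35e-05). The 2 control arrays of 2 days were thus the lowest of all 10 arrays for EXPA4. The root marker PYK10 was also lower in controls of 2 days than in either deficiency, with signals of 1428 to 1739 in controls, 2310 to 2976 under boron loss and 2898 to 3919 under calcium loss, and 4248 to 4473 in controls of 4 days. Its part in the EXPA4 result was not tested.

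EXPA15 (AT2G03090) rose in boron deficiency at 2 days. Its signal was 140 and 170 in control arrays and 205 and 254 in boron-deficient arrays, with no overlap. In calcium-deficient arrays it was 176 and 158, which overlaps the controls. The rise under boron loss was 1.43-fold (log2 change 0.52, SE 0.14, 95% confidence interval 0.21 to 0.83, limma, adjusted p = 0.0480). Under calcium loss the log2 change was 0.10 (95% confidence interval -0.21 to 0.41, adjusted p = 0.626).

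The direct comparison of the deficiencies gave EXPA15 a log2 change of 0.42, higher with boron loss (95% confidence interval 0.11 to 0.73, limma, adjusted p = 0.0884), which did not pass. A response to boron loss alone was therefore not established for EXPA15. The call under boron loss was kept in 2 of 10 cases with an array left out, without control replicate 2 or boron-deficient replicate 1 of 2 days. It was lost without any other array, down to a log2 change of 0.38 without boron-deficient replicate 2 of 2 days (adjusted p = 0.183). At 4 days EXPA15 was level, at 380 and 381 in controls and 371 and 383 in boron-deficient plants (log2 change -0.01, 95% confidence interval -0.32 to 0.30). Controls of 4 days stood above those of 2 days by 1.22 (SE 0.14, limma, adjusted p = 0.000187).

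EXPA8 (AT2G40610) was higher under boron than under calcium loss. Its signal was 167 and 233 in control arrays of 2 days, 400 and 309 in boron-deficient arrays and 181 and 187 in calcium-deficient arrays. Both boron-deficient arrays lay above all other arrays of 2 days. The difference between the deficiencies was 1.84-fold (log2 change 0.88, SE 0.21, 95% confidence interval 0.40 to 1.36, limma, adjusted p = 0.0317). Against control the log2 change under boron loss was 0.79 (95% confidence interval 0.31 to 1.26, limma, adjusted p = 0.0517), just short of the threshold, and under calcium loss -0.09 (-0.57 to 0.38, adjusted p = 0.787).

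The call between the deficiencies was lost without boron-deficient replicate 1 of 2 days (adjusted p = 0.189) and without calcium-deficient replicate 1 (0.162) or 2 (0.151). At 4 days EXPA8 ran the other way, with 242 and 351 in controls and 175 and 215 in boron-deficient plants, again without overlap. The log2 change was -0.55 (95% confidence interval -1.03 to -0.08) with an unadjusted p of 0.0276 and an adjusted p of 0.9996 by limma, so it did not pass. The difference between the boron responses of the days, -1.34 (SE 0.30, limma, adjusted p = 0.114), did not pass either. The order of the EXPA8 means ran from calcium-deficient (184) over boron-deficient at 4 days (195) and control at 2 days (199.8) to control at 4 days (296) and boron-deficient at 2 days (355). The lowest 3 groups of this order overlapped.

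**Figure D2:**
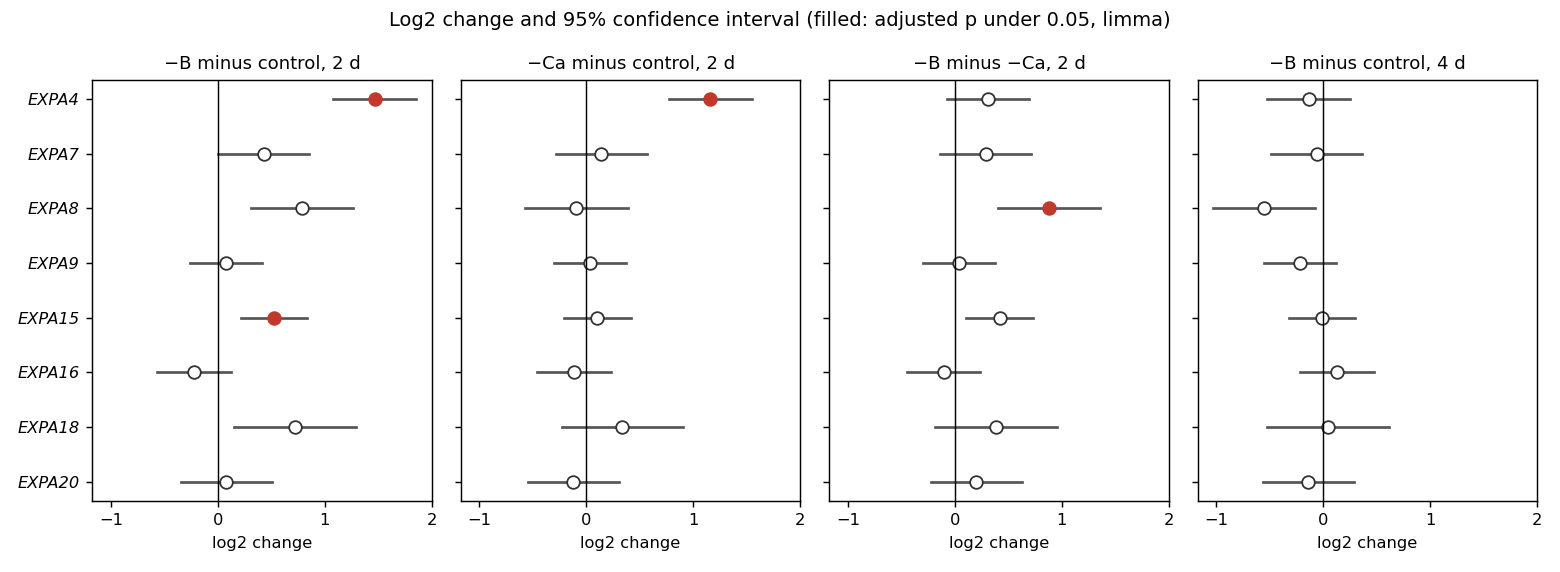
Log2 change (point) and 95% confidence interval (line) of the 8 alpha-expansins past the filter in 4 comparisons between arrays of the same day, and filled points mark an adjusted p under 0.05. EXPA4 is filled under both deficiencies (1.47 and 1.16), EXPA15 under boron loss (0.52) and EXPA8 between the deficiencies (0.88), and no point is filled at 4 days.

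EXPA7 (AT1G12560) and EXPA18 (AT1G62980) are the root hair members of the family. EXPA7 gave 79.9 and 78.4 in control arrays of 2 days, 86.2 and 144 in boron-deficient arrays and 94.9 and 83.0 in calcium-deficient arrays. EXPA18 gave 107 and 72.4 in controls, 112 and 215 under boron loss and 123 and 108 under calcium loss. For both genes each deficient array of 2 days lay above both controls, and boron-deficient replicate 2 lay far above its partner.

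Neither gene passed. The log2 change under boron loss was 0.43 for EXPA7 (95% confidence interval 0.00 to 0.85, limma, adjusted p = 0.187) and 0.72 for EXPA18 (0.15 to 1.29, adjusted p = 0.108). Without boron-deficient replicate 2 of 2 days they came to 0.10 and 0.29. Without replicate 1 they came to 0.75 (adjusted p = 0.0236) and 1.15 (adjusted p = 0.0163), so 1 array decides both values. At 4 days both genes were level, with signals of 66.4 to 78.8 for EXPA7 and 81.8 to 96.5 for EXPA18 over controls and boron-deficient plants. None of the 13 root hair marker names listed was given alone to a probe set. The amount of root hair RNA in the samples was therefore not assessed here apart from these expansins.

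**Figure D3:**
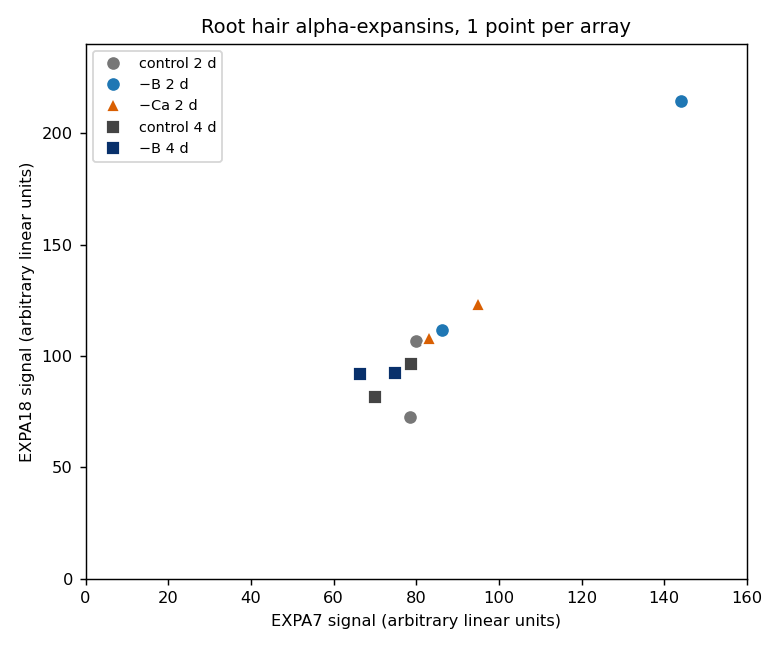
Signal of EXPA18 (vertical axis) against EXPA7 (horizontal axis) in each of the 10 arrays, both in arbitrary linear units from 0. A single boron-deficient array of 2 days stands apart at 144 and 215, and all other arrays reach at most 94.9 for EXPA7 and 123 for EXPA18.

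After the mean of the arrays of the same day was subtracted from each log2 value, EXPA7 and EXPA18 had a Pearson correlation of 0.92 and a Spearman correlation of 0.85 over the 10 arrays, the highest Pearson value among the 28 pairs of members. Without the 2 arrays farthest from the median of EXPA7, Pearson's value was 0.70. The next were EXPA7 with EXPA15 at 0.83 (0.52 without the 2 farthest arrays), EXPA4 with EXPA18 at 0.76, and EXPA4 with EXPA15 and EXPA9 with EXPA20, both at 0.75. EXPA16 had negative values with all 7 other members, from -0.69 with EXPA7 to -0.39 with EXPA8. Without the 2 farthest arrays 3 of these changed sign, to 0.50 with EXPA15, 0.18 with EXPA18 and 0.08 with EXPA7. All values share the same arrays and normalization and describe them only.

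The other members past the filter stayed close to their controls. EXPA9 (AT5G02260) ranged from 113 to 178 over all arrays, EXPA16 (AT3G55500) from 68.8 to 114 and EXPA20 (AT4G38210) from 121 to 221. Their log2 changes in the deficiency comparisons with controls lay between -0.22 and 0.13, and none passed. EXPA16 was the 1 member past the filter that was lower under boron loss at 2 days, with 114 and 96.0 in controls and 102 and 74.2 in boron-deficient arrays, which overlap. It was also lower in controls of 4 days than of 2 days (log2 difference -0.48, limma, adjusted p = 0.0345), though higher by 0.33 on the values as deposited, where the median of all probe sets is higher by 0.89. That call was kept in 3 of 10 cases with an array left out and was lost without control replicate 1 of 2 days, either 4-day control, either 4-day boron-deficient array or either calcium-deficient array (adjusted p from 0.0502 to 0.150).

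EXPA21 (AT5G39260) and EXPA24 (AT5G39310) were dim throughout, at 40.7 to 71.8 and 27.5 to 39.4. In RefSeq's annotation of TAIR10.1 they are the ends of a run of 6 neighbouring protein-coding genes that all carry expansin names, and the 4 genes between them are those of the 2 probe sets of several genes mentioned above. Whether close relatives in the run add to the signal of EXPA21 and EXPA24 was not examined. Fitted without the filter, their log2 changes in the deficiency comparisons with controls ran from -0.25 to -0.08, with adjusted p of 0.316 or more by limma.

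Counted over the family, 2 of 8 members rose and 0 fell under boron loss at 2 days, beside 5.80% of all probe sets called higher and 2.72% called lower. In that comparison 5 of the 8 lay above both controls without overlap and 0 below, beside 24.1% and 23.9% of all probe sets. Their median log2 change was 0.47, beside -0.02 over all probe sets. Under calcium loss 1 of 8 rose and 0 fell, beside 11.8% called higher and 9.93% called lower, with a median of 0.07. There 3 lay above both controls and 0 below, beside 30.0% and 30.7%. Between the deficiencies 1 of 8 was higher and 0 lower with boron loss, beside 5.73% and 4.72% of all probe sets, and 2 lay above all calcium-deficient arrays and 0 below, beside 30.3% and 27.4%.

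At 4 days 0 of 8 passed by limma, where 1 probe set of 17059 passed in all (0.00586% called higher and 0.00% lower). At an unadjusted p under 0.05 there were 725 of all probe sets and 1 of the members, EXPA8. The members' median log2 change was -0.10, and 3 of 8 lay below both controls and 1 above, beside 22.5% and 19.9% of all probe sets. In the difference of the boron responses 1 of 8 was lower and 0 higher at 4 days, beside 0.147% and 0.0821% of all probe sets. Between the controls of the 2 ages 2 of 8 were higher and 1 lower at 4 days, beside 18.9% and 17.0%, and 3 lay above and 1 below without overlap, beside 34.1% and 33.4%. With 8 members a single call is a large share, so these counts describe the members and no more.

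The spread of the 5 group means of the log2 values was 1.87 for EXPA4, 1.22 for EXPA15, 0.88 for EXPA8, 0.72 for EXPA18 and 0.56 for EXPA7, and 0.37 to 0.48 for EXPA9, EXPA16 and EXPA20. Over all probe sets past the filter the median spread was 0.60 and the 90th percentile 1.44. EXPA4 thus lay above the 90th percentile, and 4 of the 8 members lay below the median. For EXPA4 and EXPA15 the spread ran from controls of 2 days to controls of 4 days. It is therefore a difference across the days, in which day and processing cannot be told apart, and not a response to a deficiency.

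The genes whose pattern was most like that of EXPA4, after removal of the day means and over the 10 arrays, were AT1G20950 (Pearson 0.98, Spearman 0.89), AT5G07030 (0.98 and 0.84) and ATLP-1 (AT1G18250; 0.96 and 0.82), out of 9452 named genes compared. Without the 2 arrays farthest from the median of EXPA4 their Pearson values were 0.94, 0.92 and 0.89. All 3 rose in both deficiencies at 2 days, by 1.04 and 0.93, 2.04 and 1.67, and 1.88 and 1.38 on the log2 scale for boron and calcium loss in turn. These genes and those for EXPA15 were picked for likeness over the same arrays, so changes like those of the member follow from the choice. For EXPA15 the genes most alike were AT5G06630 (Pearson 0.93), AT1G48330 (0.92) and the histone H2B gene HTB4 (AT5G59910, 0.91), with Spearman values of 0.78, 0.84 and 0.83. Without the 2 arrays farthest from the median of EXPA15 these were 0.62, 0.86 and 0.80 by Pearson. Those 3 genes rose under boron loss at 2 days, by 0.70, 0.999 and 0.52, with calls kept in 2, 10 and 4 of 10 cases with an array left out, and none passed under calcium loss.

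The other branches of the expansin superfamily had 8 named genes, of which 6 passed the filter. EXPB3 (AT4G28250), a beta-expansin, rose under boron loss by 0.92 (limma, adjusted p = 0.00654) and under calcium loss by 0.58 (adjusted p = 0.0169). EXLB1 (AT4G17030), an expansin-like gene, rose under calcium loss by 0.62 (adjusted p = 0.0346). With an array left out the calcium calls of EXPB3 and EXLB1 held in 7 and 5 of 10 cases. Both were lost without control replicate 2 of 2 days and without either calcium-deficient array, and EXLB1 also without either control of 4 days. That made 1 of 6 higher under boron loss and 2 of 6 under calcium loss, with 0 lower in either. Over all probe sets 5.80% and 11.8% were called higher, and 2.72% and 9.93% lower. The list medians were -0.10 and -0.32, since EXLA1 and others lay lower without passing (EXLA1 -0.85 and -0.78). Like EXPA4, EXPB3 was higher in controls of 4 days than of 2 days (1.95, limma, adjusted p = 1.44e-05) and level under boron loss at 4 days (-0.11).

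Xyloglucan endotransglucosylase/hydrolases cut and rejoin the xyloglucan that tethers cellulose. Of their list 9 genes were named and 6 passed the filter. XTH32 (AT2G36870) rose by 1.11 under boron loss (limma, adjusted p = 0.00258) and by 0.87 under calcium loss (adjusted p = 0.00247). XTH19 (AT4G30290) rose in both as well (1.72 and 1.99), with a boron call that held in 4 of 10 cases with an array left out. XTH20 (AT5G48070) rose under calcium loss (0.66, adjusted p = 0.0225), lost without control replicate 1 of 2 days or either calcium-deficient array (adjusted p = 0.0582, 0.132 and 0.0935), and had a log2 change of 0.28 under boron loss (adjusted p = 0.315). That made 2 and 3 of 6 higher, beside 5.80% and 11.8% of all probe sets, and 0 lower, beside 2.72% and 9.93%. The list medians were 0.30 and 0.46. At 4 days of boron loss 0 of 6 passed, where 1 probe set of 17059 passed in all. The log2 changes there were 0.00 for XTH32, 0.46 for XTH19 and 0.40 for XTH20. XTH16 was at 0.06, XTH18 at -0.04 and XTH33 at -0.34.

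Cortical microtubules guide where cellulose is laid down in growing cells. Of 8 tubulin and microtubule genes 5 rose and 1 fell under boron loss at 2 days, with a median of 0.62. Over all probe sets 5.80% were called higher and 2.72% lower. TUB1 (AT1G75780) rose by 1.97 (limma, adjusted p = 0.00269) and TUB7 (AT2G29550) by 0.91 (adjusted p = 0.0178). TUA6 (AT4G14960) rose by 0.89 and TUB5 (AT1G20010) by 0.51 (adjusted p = 0.0234 and 0.0347), SPR1 (AT2G03680), a plus-end protein, by 0.72 (0.0403), and TUA1 (AT1G64740) fell by 0.67 (0.0449). Under calcium loss TUB1 (1.22) and SPR1 (0.86) rose and TUB5 fell by 0.47, with a median of 0.30. There 11.8% of all probe sets were called higher and 9.93% lower. The TUB5 fall held in 6 of 10 cases, being lost without any single array of the compared groups (adjusted p from 0.0513 to 0.132), and TUB1 and SPR1 lost their calcium calls without calcium-deficient replicate 1 (0.0627 and 0.0875). At 4 days 0 of 8 passed, where 1 probe set of 17059 passed in all. With an array left out the boron calls of TUB5, TUA1 and SPR1 held in 2, 2 and 4 of 10 cases.

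Auxin acidifies the wall and so activates expansins, and 11 auxin-inducible growth genes were named, of which 6 passed the filter. GH3.3 (AT2G23170), which conjugates auxin, fell by 1.08 under boron loss (limma, adjusted p = 0.0428), which held in 3 of 10 cases with an array left out. GH3.17 (AT1G28130) rose by 0.89 under calcium loss (adjusted p = 0.00373). That made 0 higher and 1 lower of 6 under boron loss and 1 higher and 0 lower under calcium loss, with medians of -0.27 and -0.30. The shares over all probe sets were 5.80% higher and 2.72% lower under boron loss, and 11.8% and 9.93% under calcium loss. At 4 days 0 of 6 passed, where 1 probe set of 17059 passed in all. The log2 changes there were -1.11 for GH3.3, -1.25 for IAA29 and 0.19 for IAA18, and between -0.10 and -0.05 for the rest.

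The remaining lists were too thin to describe. Pectin-modifying enzymes had 2 genes past the filter, cellulose synthesis and guidance 2, and the list of structural wall glycoproteins 1, PRP39, a pre-mRNA processing factor that only its symbol brought in. In these lists 0 genes passed in any comparison of a deficiency with control. The lists of plasma membrane proton pumps and of brassinosteroid and gibberellin genes had 0 named genes.

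**Figure D4:**
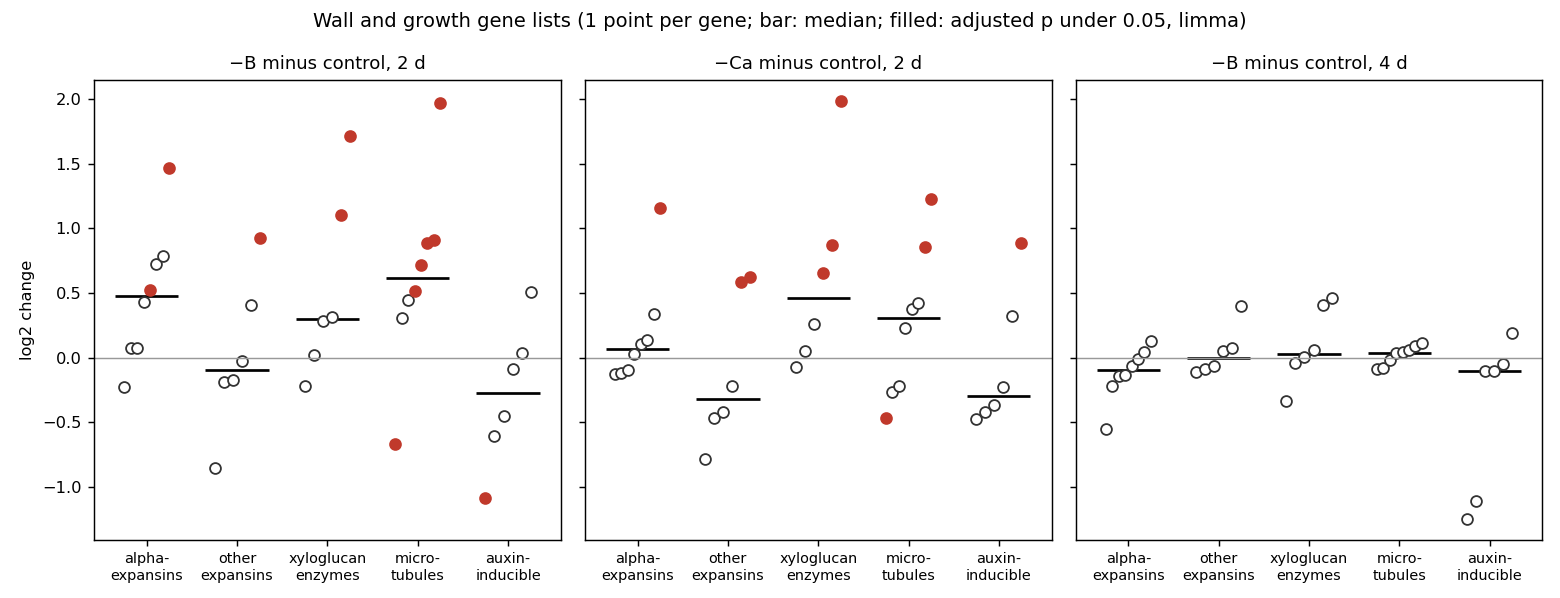
Log2 change of each gene (point) of the alpha-expansins and of 4 other wall and growth lists in the 3 comparisons of a deficiency with its control, with bars for medians and filled points for an adjusted p under 0.05. Filled points occur in every list at 2 days and in none at 4 days, where 1 probe set of 17059 passed in all.

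Shoot and root markers were set beside the expansins. Under boron loss at 2 days 0 of the 4 shoot markers passed, beside 5.80% of all probe sets called higher and 2.72% called lower. The summed signal of the 4 was 38197 to 40520 against 35463 to 41800 in controls. Under calcium loss PRK and RCA fell by 0.69 and 0.49 (limma, adjusted p = 0.00309 and 0.00894), and the sum of the 4 was 30232 to 31858. Of all probe sets 11.8% were called higher and 9.93% lower under calcium loss. LHCB4.1 and LHCB4.2 had log2 changes of -0.01 and -0.23 there and did not pass (limma, adjusted p = 0.946 and 0.548). PYK10, the 1 root marker measured, rose in both, by 0.73 under boron loss (adjusted p = 0.0375, held in 4 of 10 cases with an array left out) and by 1.09 under calcium loss (adjusted p = 0.00379). At 4 days RCA had the 2nd highest deposited signal on all 4 arrays, so that normalization gave it a single value, 18717, and no difference could appear. LHCB4.2 was at 9079 and 8744 in controls and at 7696 and 7438 under boron loss, and PRK at 7455 and 6653 and at 7971 and 8246, with log2 changes of -0.24 and 0.20 that did not pass. PYK10 was at 4248 to 4473 and 3969 to 4143. The part of these shifts in the expansin values was not tested.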

How the data were processed

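The deposited table gives an intensity per probe set, linear and as signal, for 22746 probe sets and 10 arrays. GCOS 1.4 is named in the submitters' processing notes, and the scaling is not given in the sources used here. All arrays were quantile normalized together and log2(signal + 16) was taken. A probe set needed a mean at or above the 25th percentile, which removed 5687. The test was limma 3.58.1 (R 4.3.3) on group means with 5 residual degrees of freedom and an intensity trend. It was also run on simulated data with independent noise of equal spread in all groups. That run cannot show how the test behaves where the spread differs between groups. Precision is limited by 2 arrays a group. The p-values rest on a spread pooled over the 5 groups and moderated over probe sets, and not on that of the compared groups alone. Python 3.11.15 and matplotlib 3.10.9 made the figures.

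The platform's name table gives 13513 probe sets a single gene and 503 several, and 8730 are unnamed here. Of the single genes 13436 matched RefSeq (TAIR10.1), which supplied current symbols. No build is given for the arrays, so no coordinates are printed.

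Members, gene lists and marker lists were chosen with earlier results of these data known. The text names every member, the 3 genes most like each member called against control, and the called genes of each list. Genes below the threshold that are named as contrast, such as EXLA1, were chosen after their values were seen. Alternatives covered normalization, pseudocounts of 1 and 64, the filter, replicate blocks, arrays left out, fewer groups in the fit and weights.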

Additional observations from a re-analysis of the deposited data

Results flagged for a closer look

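EXPA4 was singled out because its boron response differed between the days by a test of that difference. The response at 4 days minus that at 2 days was -1.60 on the log2 scale (limma, adjusted p = 0.0415), from a rise of 1.47 at 2 days and a change of -0.14 at 4 days. That call was lost in 7 of 13 alternatives other than arrays left out, so it depends on the processing. EXPA8 was singled out because both boron-deficient arrays lay above both controls at 2 days and below both controls at 4 days. Over all probe sets 24.1% lay above at 2 days and 22.5% below at 4 days. The share that did both was not counted. The difference of the EXPA8 responses was -1.34, which did not pass (limma, adjusted p = 0.114).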

How the results depend on the processing

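Of 1144 values of single members under alternatives, 1054 kept their direction and side of the threshold, 48 lost a call, 11 gained one and 31 changed sign; the causes were not tested. The EXPA4 rises at 2 days held with each of the 10 arrays left out, and the boron rise lost its call only with the compared groups alone (adjusted p = 0.0511).

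Under boron loss at 2 days the called members fell from 2 to 1 with median centring, quantile normalization within each day, a pseudocount of 64, no filter, the replicate block, arrays of the same day or weights, and to 0 with the compared groups alone. Called probe sets, 1454, became 952 with the block from description numbers, 456 with arrays of the same day, 44 with the compared groups alone and 206 with weights. Under calcium loss 3706 became 1905 and 2276 with arrays of the same day and with the compared groups alone. Between the deficiencies 1784 became 442 (members 0) and 627. At 4 days 1 became 2 with median centring, 3 with weights and 0 with a pseudocount of 1, a filter at the median, either block or fewer groups. For the difference of the boron responses 39 became 15 with the replicate block, 10 with the compared groups alone and 11 with weights. Its called member, EXPA4, fell to 0 there and with median centring, a pseudocount of 64 and the block from description numbers. Between controls 6118 became 14775 (members 7) on deposited values.

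With an array left out, called probe sets ran from 738 to 2784 (members 1 to 4) under boron loss, from 996 to 4221 (members 1) under calcium loss, from 110 to 2495 (members 0 to 1) between deficiencies, from 0 to 1 (members 0) at 4 days, from 0 to 428 (members 0 to 1) for the difference of responses and from 3406 to 6522 (members 2 to 4) between controls.

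Replicate numbers were not shown to pair the arrays, since same-numbered arrays correlated from -0.25 to 0.23 in their deviations from the group means, by title numbers and by description numbers alike. Descriptions number the boron-deficient arrays of 2 days 2 and 3, which turns the value with control of 2 days from -0.21 to 0.21. With the replicate block EXPA15 under boron loss had an adjusted p of 0.0573 and the EXPA4 difference of responses one of 0.0691. In the block from description numbers the 1 array numbered 3 stands alone and adds nothing to the boron change. There EXPA15 under boron loss was 0.36 (adjusted p = 0.225), EXPA8 passed (0.81, adjusted p = 0.0453), and EXPA7 came to 0.13 and EXPA18 to 0.40. It gave boron changes of -0.071 for EXPA9, 0.0053 for EXPA16 and -0.034 for EXPA20, and differences between deficiencies of -0.012 for EXPA7, -0.10 for EXPA9 and 0.12 for EXPA16.

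Between controls, deposited values gave 0.69 for EXPA7, 0.83 for EXPA9 and 0.33 for EXPA16, and median centring gave -0.13 for EXPA18. With an array left out, signs changed within these ranges. Under boron loss they were -0.13 to 0.28 for EXPA9 and -0.11 to 0.27 for EXPA20. Under calcium loss they were -0.31 to 0.13 for EXPA8, -0.17 to 0.23 for EXPA9, -0.020 to 0.23 for EXPA15 and -0.40 to 0.15 for EXPA20. Between deficiencies they were -0.036 to 0.61 for EXPA7, -0.051 to 0.13 for EXPA9, -0.30 to 0.090 for EXPA16, -0.041 to 0.82 for EXPA18 and -0.071 to 0.47 for EXPA20. At 4 days they were -0.13 to 0.0074 for EXPA7, -0.033 to 0.0083 for EXPA15 and -0.056 to 0.14 for EXPA18, and between controls -0.28 to 0.12 for EXPA9 and -0.23 to 0.25 for EXPA18. Dim probe sets such as EXPA21 and EXPA24 limit what signal over background can show.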
